A study of Mus musculus with 11 samples.

Results

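The Hox genes of the 4 mouse Hox clusters were described in microdissected ureter and kidney of fetal mice. A gene belonged to the set when its symbol was Hox followed by a cluster letter, a to d, and a number. That rule used names and no measured value, though the set was chosen with earlier results of these data known. RefSeq lists 39 such genes, and 33 of them were analysed here, each through an array probe set (a group of short probes scored as 1 value) annotated to that gene alone. By cluster, 9 of 11 HoxA, 9 of 10 HoxB, 7 of 9 HoxC and 8 of 9 HoxD genes were analysed. The others were not analysed here. The 4 compartments were ureteral smooth muscle (USM, 3 arrays), urothelium (URO, the epithelium lining the ureter, 3 arrays), cortical collecting duct (CCD, 2 arrays) and early proximal tubule (EPT, 3 arrays). All came from wild-type fetuses of the outbred CD-1 strain at embryonic stage E15.5 (Theiler stage 23, sex not known), and no treatment is named. Each array measured RNA from a pool of about 50 laser-captured sections of 5 kidneys, amplified in 2 rounds. The labels do not say whether pools shared kidneys or fetuses, so p-values measure the spread between these pools, part of which may be technical.

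Hox genes encode homeodomain transcription factors that give cells positional identity along the body axis. Within a cluster, genes at the 3′ end (low paralogue numbers) are expressed further toward the head, and genes at the 5′ end (high numbers) further toward the tail; paralogues are genes of the same number in different clusters. In the developing kidney, the paralogous genes Hoxa11, Hoxc11 and Hoxd11 act with Eya1 and Pax2 in the induction of the ureteric bud, Hoxa13 and Hoxd13 pattern the caudal urogenital tract, and the Hoxb7 promoter is widely used to drive transgenes in the ureteric bud. Collecting duct and urothelium both derive from the ureteric bud, the proximal tubule from metanephric mesenchyme, and ureteral smooth muscle from mesenchyme around the ureter.

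The promoter windows of 6 genes with compartment differences are shown because the HoxD genes among them belong to the same cluster and were high in different compartments. Each is the 250 bases before the RefSeq gene start (build GRCm38.p6, plus strand), 5′ to 3′. Capitals mark matches, on either strand, to 3 motifs. The first is TATAAA, the core of the box bound by the general transcription machinery. The second is CCAAT, a box common in promoters. The third is TTTATG, which Cdx factors bind, themselves regulators of Hox genes.
Hoxb4, chr11:96318017-96318266: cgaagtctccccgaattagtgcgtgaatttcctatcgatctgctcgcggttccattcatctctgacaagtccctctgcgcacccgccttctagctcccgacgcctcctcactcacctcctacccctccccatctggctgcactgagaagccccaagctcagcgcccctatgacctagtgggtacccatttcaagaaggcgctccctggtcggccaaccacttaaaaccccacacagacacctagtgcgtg
Hoxd1, chr2:74762730-74762979: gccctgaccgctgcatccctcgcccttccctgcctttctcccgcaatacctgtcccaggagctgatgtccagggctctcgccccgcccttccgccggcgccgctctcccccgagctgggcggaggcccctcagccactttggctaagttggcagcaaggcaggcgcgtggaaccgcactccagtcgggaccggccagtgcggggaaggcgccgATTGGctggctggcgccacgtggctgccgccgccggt
Hoxd3, chr2:74711743-74711992: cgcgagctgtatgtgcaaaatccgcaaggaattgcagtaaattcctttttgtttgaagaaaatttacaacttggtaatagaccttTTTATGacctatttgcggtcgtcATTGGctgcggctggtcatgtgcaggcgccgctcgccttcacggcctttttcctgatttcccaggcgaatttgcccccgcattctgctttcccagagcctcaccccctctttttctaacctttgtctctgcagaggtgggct
Hoxd8, chr2:74704365-74704614: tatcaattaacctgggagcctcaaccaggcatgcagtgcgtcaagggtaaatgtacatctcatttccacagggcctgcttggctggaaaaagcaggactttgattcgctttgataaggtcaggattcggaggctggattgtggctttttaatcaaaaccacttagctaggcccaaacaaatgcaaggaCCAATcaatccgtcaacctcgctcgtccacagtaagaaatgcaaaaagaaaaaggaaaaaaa
Hoxd9, chr2:74697513-74697762: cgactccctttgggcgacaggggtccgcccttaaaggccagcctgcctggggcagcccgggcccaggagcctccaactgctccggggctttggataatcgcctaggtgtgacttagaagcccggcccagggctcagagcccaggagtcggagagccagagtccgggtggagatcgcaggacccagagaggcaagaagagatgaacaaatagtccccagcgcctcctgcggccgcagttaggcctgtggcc
Hoxd13, chr2:74667975-74668224: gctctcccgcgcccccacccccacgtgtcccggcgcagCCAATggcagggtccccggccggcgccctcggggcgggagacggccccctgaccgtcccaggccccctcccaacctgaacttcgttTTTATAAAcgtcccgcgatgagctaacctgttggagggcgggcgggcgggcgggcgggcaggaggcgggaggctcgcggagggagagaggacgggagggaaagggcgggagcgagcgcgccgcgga

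The promoter table held 21 windows for 19 of the 33 Hox genes on the array. A TATAAA match was present in 12.4% of the 32851 windows of the table, in 2 of the 21 Hox windows and, among those shown, in that of Hoxd13, where 2 overlapping matches on opposite strands began 126 and 124 bases before the start. CCAAT was found in 33.8% of all windows and in 11 of the 21 Hox windows, including those of Hoxd1, Hoxd3, Hoxd8 and Hoxd13. TTTATG was found in 10.8% of all windows, in 3 of the 21 Hox windows and, among those shown, in that of Hoxd3. The Hoxb4 and Hoxd9 windows held none of the 3. G and C made up 74.4% of the Hoxd13 window, 71.6% of the Hoxd1 window and 44.4% of the Hoxd8 window, against a median of 52.4% over the table. A match is a description of the letters, not evidence of binding.

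Values are signals from the authors' array software, in linear units, which were compared as log2(signal + 55). A probe set entered the tests when it exceeded its own array's median (247 to 401) in at least 2 of the 11 arrays, which left 13614 genes and 26 of the 33 Hox genes. A gene was called when its adjusted p (limma, Benjamini-Hochberg over all 13614 genes) was below 0.05 and its log2 difference was at least 1 in size. Hoxd13, Hoxd1 and Hoxa2 passed the filter in only 5, 4 and 4 arrays, mostly those where they were high. Hoxb4, Hoxb5 and Hoxb6 exceeded the array median in 8 arrays and Hoxc4 in 7, none of them a USM array. Counts and medians over the 26 therefore describe these genes and do not stand as evidence for the set. All 10 smooth muscle markers were called higher in USM against the rest, and their summed signal was 334691 to 407889.7 in USM, 28594 to 82474 in URO, 16704 to 33945 in CCD and 12727 to 18943 in EPT. The 10 stromal markers were also highest in USM (469986 to 594172, against 78595 to 164619 in URO, 60614 to 122224 in CCD and 42074 to 75762 in EPT). Urothelial, collecting duct and proximal tubule markers each had their highest sums in the compartment of that name. Urothelium replicate 2 had a Gapdh 3′ to 5′ signal ratio of 55.3, against 6.79 to 29.7 in the other 10 arrays, and CCD replicate 2 correlated best with urothelium replicate 3 (r = 0.909 over genes), not with CCD replicate 1. The part of stromal cells and RNA quality in the Hox differences was not tested.

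Across the 4 compartments, 13 of the 26 tested Hox genes differed (limma F-test), where 20.1% of all 13614 genes did. With label batch as a fixed block, 10 of these 13 stayed called, and 1322 genes were called over all, against 2741 without it. The 13 were Hoxa2 in HoxA, Hoxb2, Hoxb3, Hoxb4, Hoxb5 and Hoxb6 in HoxB, Hoxc4 and Hoxc8 in HoxC, and Hoxd1, Hoxd3, Hoxd8, Hoxd9 and Hoxd13 in HoxD. Of paralogue groups 1 to 4, 7 of 9 tested genes differed, of groups 5 to 8, 4 of 7, and of groups 9 to 13, 2 of 10. The map of all 26 genes by array shows a block of low HoxB values and high Hoxd13 in USM. Hoxd1 and Hoxd3 were highest in CCD, and Hoxd8 and Hoxd9 were high in URO and CCD.

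**Figure D1:**
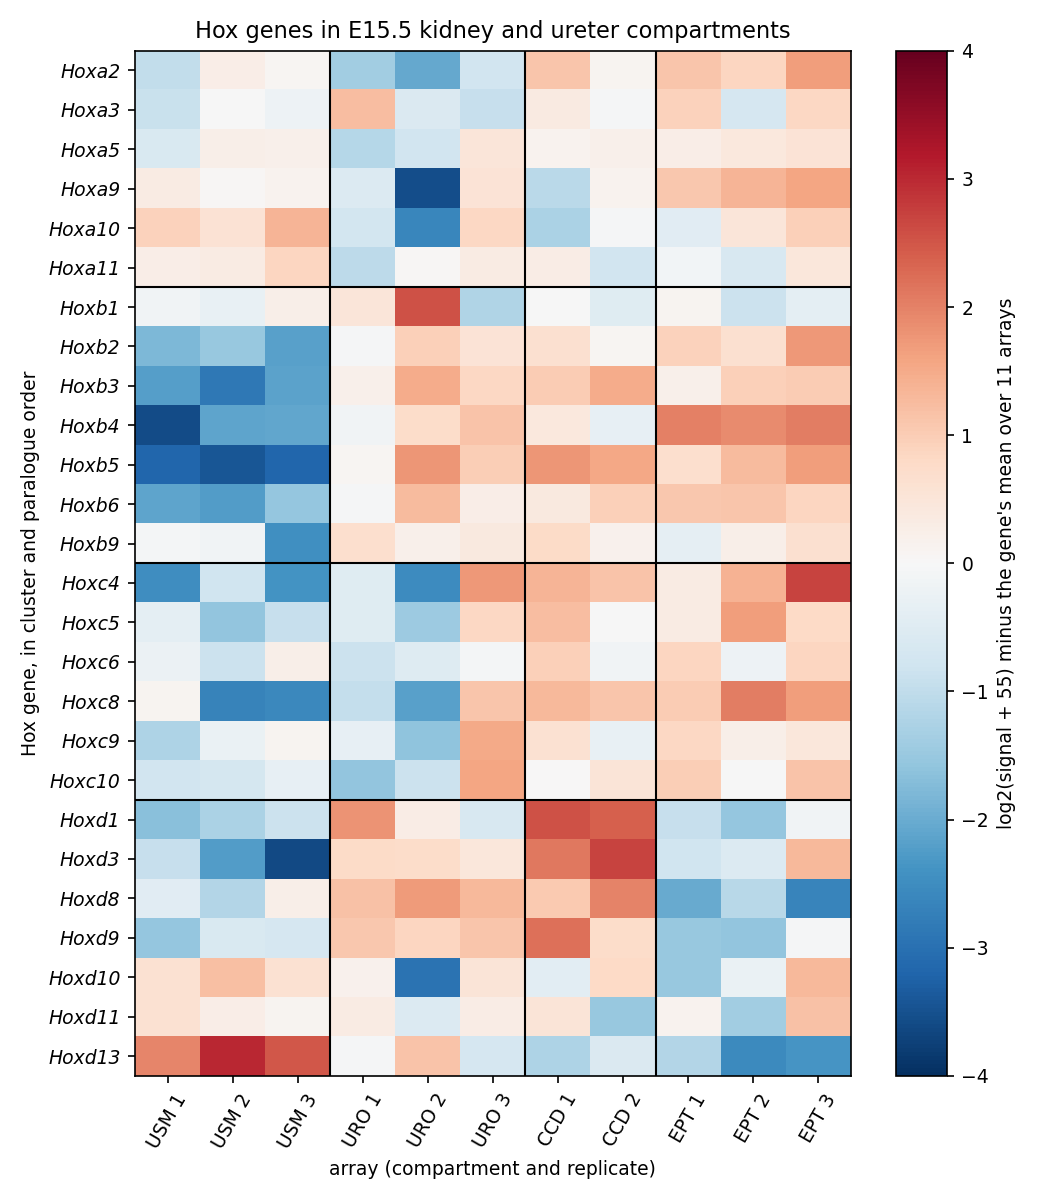
Log2(signal + 55) of the 26 tested Hox genes (rows, in cluster and paralogue order) in the 11 arrays (columns, USM, URO, CCD and EPT from left to right), minus each gene's own mean over the arrays. Blue is below and red above that mean. Hoxb2 to Hoxb6 are blue in all 3 USM arrays and Hoxd13 is red there, while Hoxd1 and Hoxd3 are darkest red in the 2 CCD arrays.

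In the HoxB cluster, 5 neighbouring genes were low in ureteral smooth muscle and high in the 3 epithelia. Hoxb5, which in other tissues acts in lung and enteric nervous system development, gave signals of 24.9, 13.4 and 25.8 in USM, 718, 2407 and 1389.5 in URO, 2426 and 2062 in CCD and 1095, 1712 and 2288 in EPT. The USM values lay below the 55 units added before the logarithm and did not overlap those of the other 8 arrays. Set against the mean of the other 3 compartments, Hoxb5 was lower in USM by a log2 difference of -4.53 ± 0.38 (SE of the fit, as for all differences given with ±), or 23.0-fold on this scale, with an adjusted p of 5.77e-06. With so dim a signal the size depends on the value added: the difference was -5.70 when 12 was added and -3.17 when 190 was added. In bulk RNA, fewer cells expressing a gene and less RNA per cell cannot be told apart.

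Hoxb4, known for its effect on blood stem cell expansion, gave 21.0, 154 and 159 in USM, 775, 1443 and 1963 in URO, 1162 and 673 in CCD and 3625, 3297 and 3731 in EPT. On the probe set used it formed 3 levels without overlap, lowest in USM, intermediate in URO and CCD, and highest in EPT. The log2 difference was -3.47 ± 0.40 for USM against the rest (adjusted p = 7.16e-05) and 2.64 ± 0.40 for EPT against the rest (adjusted p = 5.97e-04). Hoxb3 gave 513, 301 and 535 in USM, 2933, 7179 and 4520.4 in URO, 5248 and 7239 in CCD and 2961, 4992 and 5254 in EPT. Its USM arrays lay below all others and its URO, CCD and EPT ranges overlapped, with a USM difference of -3.34 ± 0.36 (adjusted p = 3.83e-05).

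Hoxb2, a gene of hindbrain segment identity, gave 393, 488 and 291 in USM, 1454, 2963 and 2191 in URO, 2367 and 1564 in CCD and 2855, 2387 and 5132 in EPT. Every USM array was again below every other array, and the URO range overlapped those of CCD and EPT, which did not overlap each other. The USM difference was -2.47 ± 0.35 (adjusted p = 3.50e-04). Hoxb6 gave 163, 146 and 267 in USM, 856, 2170.1 and 1063 in URO, 1177 and 1747 in CCD and 1907, 1965 and 1656 in EPT, with the USM arrays apart and the epithelia overlapping. The USM difference was -2.68 ± 0.34 (adjusted p = 1.65e-04). In EPT against the rest, Hoxb2 (1.43), Hoxb5 (1.43) and Hoxb6 (1.28) were higher with adjusted p of 0.0145, 0.0203 and 0.0230, where the mean of the other 3 includes the low USM arrays.

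**Figure D2:**
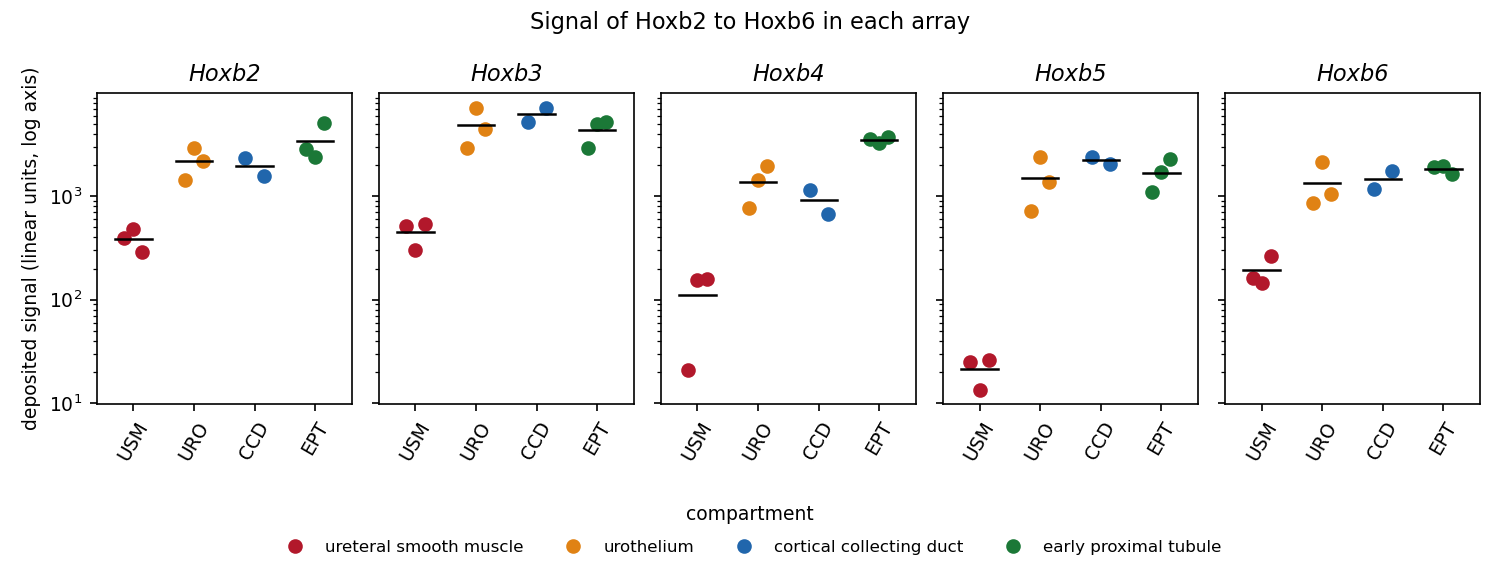
Deposited signal (linear units on a log axis) of Hoxb2 to Hoxb6 in each of the 11 arrays, with USM, URO, CCD and EPT from left to right in each panel. Points are arrays and lines are compartment means of the linear signal; the 3 USM points lie below all 8 other points in every panel.

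The labels carry a date-like batch mark whose meaning is not stated, and arrays of different compartments shared some marks, so differences could also be read within a mark. For USM minus URO within label batches 1 and 2, Hoxb5 differed by -4.54 and -3.27. Hoxb4 differed by -3.02 and -3.45, and Hoxb3 by -3.29 and -2.40. These had the direction of the pooled differences of -4.20 ± 0.45, -3.17 ± 0.48 and -3.23 ± 0.43. For Hoxb2 the pair was -2.91 and -1.75, and for Hoxb6 it was -2.29 and -2.06. In batch 4, which held 1 array each of USM, CCD and EPT, Hoxb5 was lower in USM by a log2 difference of -5.18 against CCD and -4.07 against EPT, each from single arrays with no test.

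The ends of the HoxB cluster did not show the pattern at the threshold. Hoxb9 had a USM difference of -1.24 ± 0.48 (adjusted p = 0.102), with USM signals of 348, 332 and 22.5 inside or below the 279 to 665 of the other arrays. Hoxb1 exceeded its array's median in only 2 arrays and reached 1612 in urothelium replicate 2, the array with the high Gapdh ratio, against 68.2 to 341 in the other 10. The probe set of Hoxb7 was below the array median everywhere (24.2 to 158 in USM, 5.51 to 61.5 in URO, 38.4 to 102 in CCD and 20.7 to 158 in EPT). A probe set annotated to both Hoxb8 and Hoxb7, which names neither alone, gave 626, 32.2 and 135 in USM, 764, 381 and 1042 in URO, 3711 and 818 in CCD and 1312, 462 and 502 in EPT. Hoxb13 stayed at 3.48 to 51.3 in all arrays.

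Second probe sets existed for Hoxb3 and Hoxb4 and were dimmer. For Hoxb4 the second gave 40.7, 65.1 and 50.1 in USM, 50.0, 122 and 139 in URO, 438 and 136 in CCD and 296, 285 and 239 in EPT. There USM was low again but overlapped URO, and CCD replicate 1 exceeded all EPT arrays, so EPT was not apart as the highest. For Hoxb3 it gave 50.3, 178 and 301 in USM, 209.8, 353 and 232 in URO, 468 and 225 in CCD and 566, 401 and 890.5 in EPT. There USM overlapped URO and CCD but not EPT. With the log2 values of a gene's probe sets averaged, the USM difference was -2.35 for Hoxb4 and -2.20 for Hoxb3, both still called.

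In the HoxD cluster the genes differed between compartments in several ways. Hoxd13, at the 5′ end of the cluster and known for patterning digits and the caudal urogenital tract, gave 1526, 3246 and 2245 in USM, 342, 855 and 203 in URO, 117 and 220.0 in CCD and 127, 14.2 and 24.1 in EPT. Every USM array exceeded every other array, and the lowest URO array lay within the CCD range. The log2 difference for USM against the rest was 3.42 ± 0.44 (adjusted p = 1.78e-04), and for USM minus EPT it was 4.52 ± 0.53 (adjusted p = 5.61e-05). Of the EPT signals 2 lie under the 55 added, and the USM difference from the rest was 3.88 with 12 added and 2.71 with 190 added. URO also exceeded EPT, by 2.18 ± 0.53 (adjusted p = 0.0183). Within label batches 1 and 2, USM minus URO was 2.25 and 1.99, against 2.34 ± 0.53 over all arrays, and with label batch as a block USM minus URO was 2.14 ± 0.63 and no longer called (adjusted p = 0.0875). A second Hoxd13 probe set was dim in all 11 arrays (8.43 to 39.7), so the difference rests on 1 probe set.

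Hoxd1, at the 3′ end of the cluster, gave 61.2, 97.3 and 151 in USM, 1233, 402 and 184 in URO, 2114 and 1884 in CCD and 139, 70.8 and 284 in EPT. Both CCD arrays exceeded all others. Urothelium replicates 1 and 2 lay between them and all USM and EPT arrays, and urothelium replicate 3 lay within the EPT range. For CCD against the mean of the other 3 the log2 difference was 3.02 ± 0.54 (adjusted p = 0.0117). Hoxd3 gave 441, 143 and 22.3 in USM, 1554, 1516 and 1236 in URO, 4004 and 5983 in CCD and 486, 589 and 2251 in EPT. CCD was again apart from all other arrays, and USM lay below the others, its highest array just under the lowest EPT array. The log2 difference was 2.94 ± 0.62 for CCD against the rest (adjusted p = 0.0281) and -3.27 ± 0.54 for USM against the rest (adjusted p = 0.00101). A probe set annotated to both Hoxd4 and Hoxd3 gave 100.4, 73.6 and 172 in USM, 794, 1377 and 723 in URO, 1743 and 1069 in CCD and 82.3, 486 and 523 in EPT. The 7 leukocyte markers summed to 4726 to 9020.0 in CCD, against 2098 to 2622 in USM, 2351 to 5131 in URO and 3141 to 8318 in EPT, and their part in the CCD values was not tested. Of these markers Ptprc gave 2148 and 5709 in CCD, while none of the other 6 was highest in a CCD array, and 1 of 6 tested was called in CCD against the rest. Leaving out CCD replicate 1, or CCD replicate 2, left no Hox gene called in CCD against the rest (limma), and 6 had an unadjusted p below 0.05 in each case.

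Hoxd8 and Hoxd9 lie next to each other and were high in both derivatives of the ureteric bud. Hoxd8 gave 4077, 2443 and 6579.6 in USM, 12855, 18467 and 13812 in URO, 11717 and 22663 in CCD and 1336, 2556 and 848 in EPT. The URO and CCD arrays, which overlapped each other, exceeded all USM and EPT arrays. The difference from EPT was 3.33 ± 0.49 for URO (adjusted p = 7.37e-04) and 3.46 ± 0.55 for CCD (adjusted p = 0.00208). A second Hoxd8 probe set, marked by its name suffix as sharing probes with other transcripts, gave 2579, 4449 and 1722 in USM, 17799.9, 2668 and 4116 in URO, 13099 and 33454 in CCD and 1161, 1414 and 8226 in EPT, so there URO overlapped USM and EPT.

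Hoxd9 gave 1033, 2026 and 1933 in USM, 6661, 5722 and 6879.8 in URO, 14511 and 5308 in CCD and 1063, 1013 and 3013 in EPT. The URO and CCD arrays overlapped and lay above all USM and EPT arrays. The difference from EPT was 2.07 ± 0.51 for URO (adjusted p = 0.0188) and 2.52 ± 0.57 for CCD (adjusted p = 0.0182). Within label batches 3 and 4, CCD minus EPT was 1.57 and 3.70 for Hoxd9, 3.89 and 3.08 for Hoxd8, and 3.23 and 3.48 for Hoxd1. URO shared no label batch with CCD or EPT, so no URO difference from these could be read within a batch. With label batch as a block, CCD minus EPT was 2.48 ± 0.63 for Hoxd9 and not called (adjusted p = 0.0549). Hoxd10 (542 to 11403) and Hoxd11 (16.7 to 408) had F-test adjusted p of 0.523 and 0.817. For Hoxd10 the lowest USM array exceeded the highest URO array and the other ranges overlapped, and Hoxd12 was dim in every array (6.43 to 38.2).

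**Figure D3:**
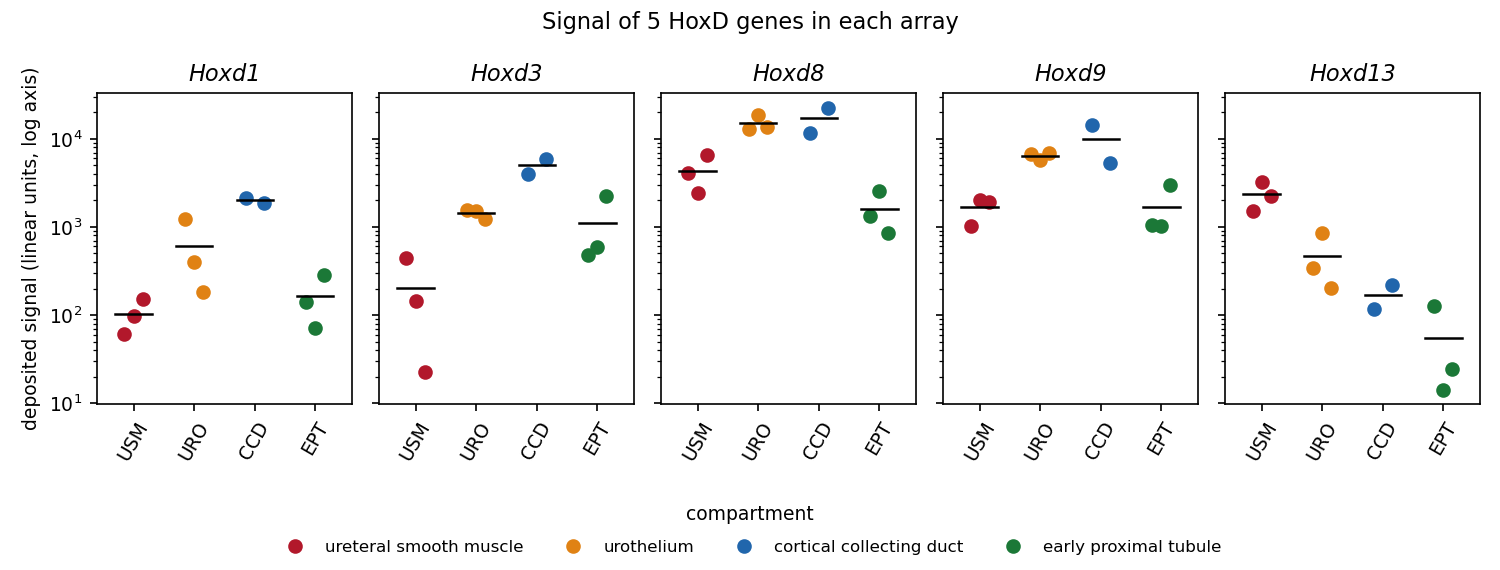
Deposited signal (linear units on a log axis) of Hoxd1, Hoxd3, Hoxd8, Hoxd9 and Hoxd13 in each of the 11 arrays, with USM, URO, CCD and EPT from left to right in each panel; points are arrays and lines are means of the linear signal. Hoxd1 and Hoxd3 peak in the 2 CCD arrays, Hoxd8 and Hoxd9 are high in URO and CCD, and Hoxd13 is highest in the 3 USM arrays.

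In the HoxA cluster, 1 of the 6 tested genes (16.7%) differed across the compartments, near the 20.1% of all genes that did. Hoxa2, the most 3′ HoxA gene tested and a gene of the second pharyngeal arch, gave 85.3, 279 and 236 in USM, 50.6, 11.6 and 109.9 in URO, 540.1 and 247 in CCD and 539.8, 454 and 825 in EPT. It was lowest in URO, where 2 of the 3 arrays lay below all others, and high in EPT, where 1 CCD array overlapped. The difference of URO minus EPT was -2.61 ± 0.48 (adjusted p = 0.00326). Hoxa9 gave 24959, 20497 and 21562 in USM, 13362, 1623 and 28803 in URO, 9263 and 21724 in CCD and 41906, 50545 and 59262 in EPT. All EPT arrays lay above the other 8, but the URO arrays spread widely, from the low replicate 2 to the high replicate 3, and the F-test did not pass (adjusted p = 0.121). On a second, dimmer Hoxa9 probe set EPT gave 1128, 554 and 1198 and USM gave 816, 768 and 416, so EPT was not apart there. Hoxa10 ranged over 6221 to 10672 in USM, 637 to 7409 in URO, 1703 to 3999.5 in CCD and 3007 to 8022 in EPT, with an F-test adjusted p of 0.222. Urothelium replicate 2 was the lowest of the 11 arrays for Hoxa9, Hoxa10 and Hoxd10.

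Hoxa11, one of the genes needed for kidney induction, ranged over 908 to 1391 in USM, 331 to 956 in URO, 411 to 934 in CCD and 457 to 1048 in EPT. These ranges overlapped (adjusted p = 0.597). Hoxa5 (791 to 2684) and Hoxa3 (223 to 1163) had adjusted p of 0.469 and 0.761. On the probe sets used, the EPT arrays lay above all USM and CCD arrays for Hoxa5 but not for Hoxa3. On a second Hoxa5 probe set EPT gave 1346, 1902 and 2458, while USM replicate 3 gave 1725 and CCD replicate 1 gave 2676. There EPT overlapped both. The 4 Hoxa3 probe sets ranked the arrays differently. Hoxa4, Hoxa7 and Hoxa13 did not exceed the array median in any array, with highest signals of 164, 215 and 272.

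In the HoxC cluster, 2 of the 6 tested genes, Hoxc4 and Hoxc8, differed across the compartments, where 20.1% of all genes did. Hoxc5 was called in separate comparisons but not in the F-test. For these 3 the standard errors were 0.49 to 0.74 for USM against the rest, where those of Hoxb2 to Hoxb6 were 0.34 to 0.40. Hoxc8 gave 885, 81.4 and 91.9 in USM, 394, 136 and 1826 in URO, 2099.6 and 1807 in CCD and 1695, 3566 and 2728 in EPT. The CCD and EPT arrays overlapped at high values, while USM replicate 1 and urothelium replicate 3 stood above the other arrays of their compartments. The difference of USM against the rest was -2.41 ± 0.68 (adjusted p = 0.0271), and USM minus URO within label batches 1 and 2 was -2.03 and 1.07, which differ in sign. Hoxc4 gave 34.4, 237 and 40.5 in USM, 305, 32.3 and 1625 in URO, 1237 and 1048 in CCD and 582, 1272 and 3235 in EPT, with a difference of -2.66 ± 0.74 for USM against the rest (adjusted p = 0.0263). Its USM arrays lay within the URO range and below all CCD and EPT arrays.

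Hoxc5 gave 309, 106 and 199 in USM, 293, 122 and 793 in URO, 1083 and 422 in CCD and 547, 1478 and 783 in EPT. USM lay below CCD and EPT while URO overlapped all 3, and the gene was called lower in USM than in EPT (-1.90 ± 0.59, adjusted p = 0.0368) but not across the 4 compartments (adjusted p = 0.101). Hoxc6, Hoxc9 and Hoxc10 had F-test adjusted p of 0.314, 0.669 and 0.425. Urothelium replicate 3 was the highest URO array for all 6 tested HoxC genes, with 870.1 for Hoxc9 and 2435 for Hoxc10. The same array gave 1576 for Gdnf, a nephron progenitor and mesenchyme marker, against 34.5 and 39.6 in the other URO arrays, and 7 of the 8 nephron progenitor markers were highest in it among the URO arrays. The 8 markers summed to 14318 to 16421 in USM, 2237 to 17320.4 in URO, 7764 to 16929 in CCD and 5261 to 16058 in EPT, and their part in the HoxC values was not tested. Hoxc13 exceeded the array median only in USM replicate 3, at 329.9.

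In USM against the mean of the other 3 compartments, 10 of the 26 tested Hox genes were lower and 1, Hoxd13, was higher, where 9.12% of all genes were lower and 6.05% higher. The 10 were Hoxb2 to Hoxb6, Hoxc4, Hoxc8, Hoxd1, Hoxd3 and Hoxd9. The median log2 difference was 0.09 over 6 HoxA genes, -2.68 over 7 HoxB genes, -1.09 over 6 HoxC genes and -0.80 over 7 HoxD genes, against -0.07 over all genes. By position, the median was -2.47 for paralogue groups 1 to 4, -1.36 for groups 5 to 8 and 0.38 for groups 9 to 13. With label batch as a fixed block, 7 stayed called (Hoxb2 to Hoxb6, Hoxd3 and Hoxd13), and the differences of the others kept their sign. Over all genes, 951 were called with the block, against 2065 without it.

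**Figure D4:**
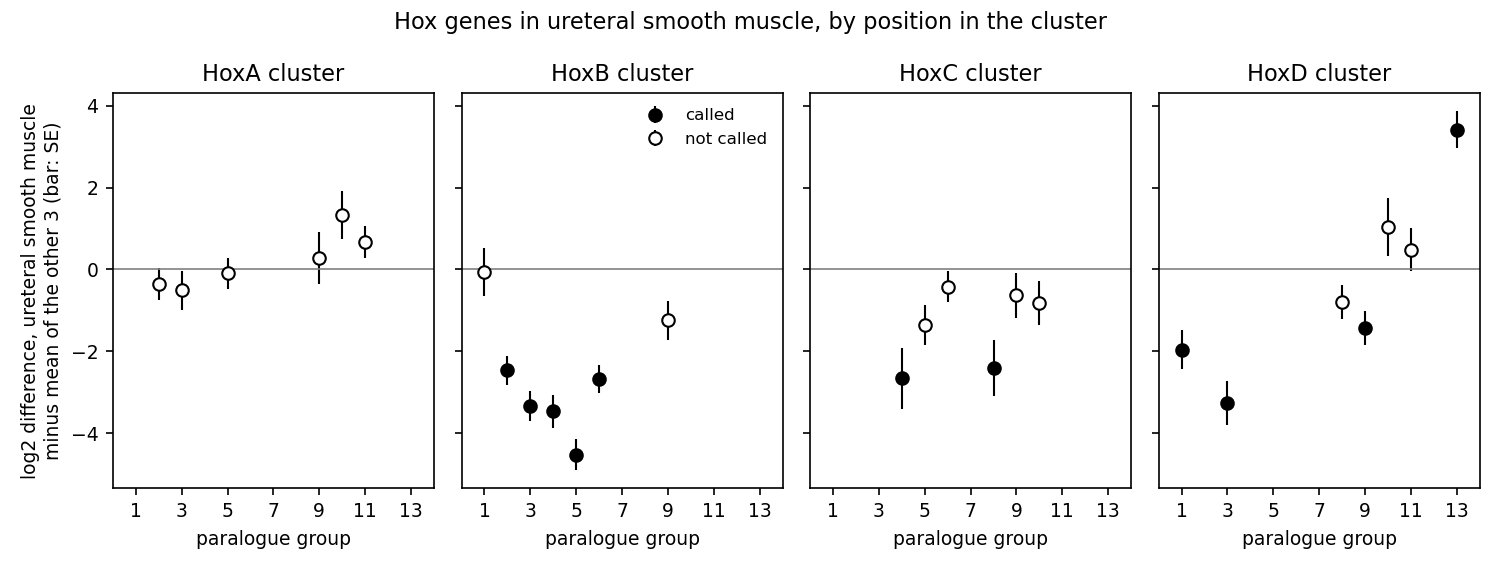
Log2 difference between USM and the mean of the other 3 compartments (bars, SE from the fit of 11 arrays) for each tested gene by paralogue group, in 4 panels for the HoxA to HoxD clusters. Filled points were called. Hoxb2 to Hoxb6 lie between -2.47 and -4.53, and the HoxD points run from negative values at the 3′ end to 3.42 at Hoxd13.

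The other compartments set against the rest gave fewer calls. In EPT, 5 of the 26 genes were higher (Hoxa2, Hoxb2, Hoxb4, Hoxb5 and Hoxb6) and 3 lower (Hoxd8, Hoxd9 and Hoxd13), where 9.53% of all genes were higher and 6.41% lower. Hoxd8 had the largest of these differences (-2.75 ± 0.41, adjusted p = 5.06e-04). With the label batch block only Hoxb4 stayed called in EPT (2.49 ± 0.49, adjusted p = 0.0264). Over all genes, 406 were called there with the block, against 2169 without it. Leaving out EPT replicate 1, 2 or 3 left 5, 5 and 4 calls, and leaving out urothelium replicate 3 gave 13. In CCD, 3 genes were called, all higher (Hoxb5, Hoxd1 and Hoxd3), where 1.42% of all genes were higher. For Hoxb5 the CCD, URO and EPT ranges overlapped, and the mean of the other 3 includes the low USM arrays. In URO, Hoxd8 was higher (1.69 ± 0.41, adjusted p = 0.0492) and Hoxa2 lower (-1.94 ± 0.40, adjusted p = 0.0240), where 1.65% of all genes were higher and 0.713% lower. Hoxd8 stayed called there under 5 of 21 alternative settings. The block left 3 genes called in CCD and 0 in URO over all genes, against 278 and 322 without it, so few calls of any kind remained there. With the block no Hox gene was called in CCD or URO (limma), and 6 and 2 had an unadjusted p below 0.05. None was called in URO without urothelium replicate 1, urothelium replicate 2 or CCD replicate 1, where 7, 3 and 6 had one.

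Between pairs of compartments, USM minus URO gave 1 higher and 8 lower Hox genes, where 2.93% and 5.03% of all genes were higher and lower, and 6 calls with label batch as a block (Hoxb2 to Hoxb6 and Hoxd3). USM minus CCD gave 1 higher and 9 lower, where 3.36% and 4.91% were, but 2 calls (Hoxb3 and Hoxb5) with the block and 6 without CCD replicate 1. USM minus EPT gave 1 higher and 9 lower, where 8.06% and 12.3% were, and 5 calls with the block (Hoxb3 to Hoxb6 and Hoxd13). In all 3 the gene that was higher was Hoxd13, and Hoxb2 to Hoxb6 were among the lower; the 3 comparisons share the USM arrays. URO minus EPT gave 3 higher (Hoxd8, Hoxd9 and Hoxd13) and 1 lower (Hoxa2), where 5.02% and 6.44% were, with 0 called and 4 at an unadjusted p below 0.05 under the block in limma, 2 called without EPT replicate 2 and 9 without urothelium replicate 3. CCD minus EPT gave 3 calls, all higher (Hoxd1, Hoxd8 and Hoxd9), where 2.19% were higher, with 1 call without CCD replicate 1 and 5 without USM replicate 1. With the block, Hoxd1 and Hoxd8 stayed called, Hoxd9 did not, and Hoxb4 was called lower (-1.99 ± 0.43, adjusted p = 0.0273). Over all genes, calls with and without the block were 719 and 1084 for USM minus URO and 302 and 1126 for USM minus CCD. They were 710 and 2771 for USM minus EPT, 24 and 1560 for URO minus EPT and 627 and 795 for CCD minus EPT.

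No Hox gene was called between the ureteric bud derivatives, URO minus CCD (limma, 0 of 26), where 0.257% of all genes were called, and 3 had an unadjusted p below 0.05. These were Hoxa2 (-2.01 ± 0.54, unadjusted p = 0.00237), Hoxd1 (-1.98 ± 0.63, unadjusted p = 0.00789) and Hoxd3 (-1.74 ± 0.73, unadjusted p = 0.0323), each with a negative sign. With 3 arrays against 2 and standard errors of this size, differences of more than 2-fold could go uncalled, and the result does not show that the compartments were alike.

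Ureter was set against kidney by comparing the mean of USM and URO with the mean of CCD and EPT. 10 of the 26 Hox genes were lower in ureter and 1, Hoxd13, was higher (2.79 ± 0.40, adjusted p = 6.02e-04), where 7.79% of all genes were lower and 5.56% higher. The lower ones were Hoxa2, Hoxb2 to Hoxb6, Hoxc4, Hoxc5, Hoxc8 and Hoxd3, led by Hoxb5 (-2.59 ± 0.34, adjusted p = 3.01e-04). With the label batch block in limma, 0 Hox genes and 0 of all 13614 genes were called, and 7 and 1209 had an unadjusted p below 0.05; ureter and kidney shared only batch 4. Without CCD replicate 1 there were 7 calls.

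Whether the ureter minus kidney difference was the same in both lineages was tested directly, as (USM minus EPT) minus (URO minus CCD), which use separate arrays. USM is smooth muscle and the other compartments are epithelia, so organ, lineage and tissue type cannot be told apart in this test. The ureter minus kidney difference differed between the pairs for 6 of the 26 Hox genes, lower for 5 and higher for 1, where 4.56% and 2.02% of all genes were. For Hoxb4 the difference was -4.58 ± 0.48 in USM minus EPT and 0.53 ± 0.54 in URO minus CCD, so the difference between them was -5.11 ± 0.72 (adjusted p = 0.00144). Hoxb5 gave -4.47 and -0.71 (adjusted p of the difference between them 0.00520), and Hoxd13 gave 4.52 and 1.06 (adjusted p = 0.0204). Hoxb2, Hoxb3 and Hoxb6 were the other 3. Hoxa2 gave -1.43 and -2.01 in the 2 pairs and Hoxd3 gave -2.24 and -1.74, of which only the USM minus EPT difference of Hoxd3 was called. With the block, Hoxb2, Hoxb4 and Hoxb5 stayed called, and 3 genes did without CCD replicate 2.

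**Figure D5:**
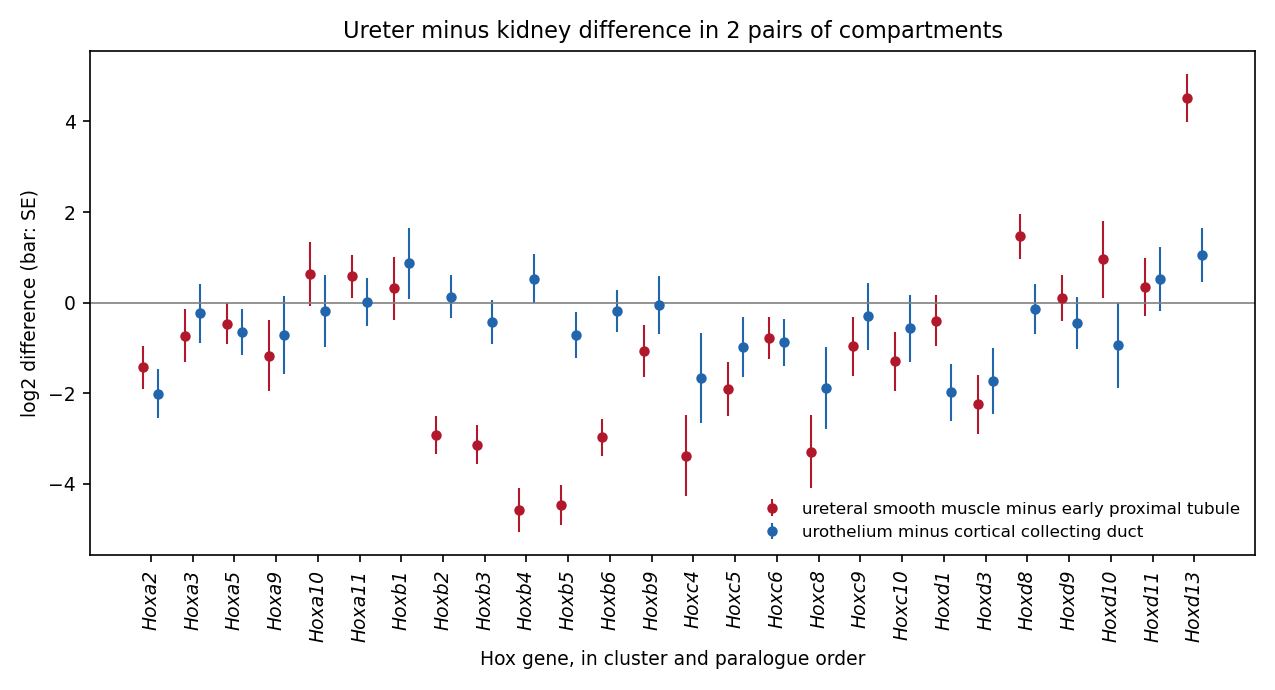
Log2 difference (bars, SE) of USM minus EPT (red) and of URO minus CCD (blue) for the 26 tested Hox genes in cluster and paralogue order; the pairs share no array. The red and blue points lie farthest apart at Hoxb2 to Hoxb6, where red is between -2.93 and -4.58 and blue between -0.71 and 0.53, and at Hoxd13.

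Genes that work with Hox proteins or lie in the clusters were counted from lists of named genes. Among cofactors of the TALE homeodomain class, which bind DNA together with Hox proteins, 9 of 10 on the array were tested, and the 4 that were called in USM against the rest were all higher, where 6.05% of all genes were higher and 9.12% lower. Pbx3 gave 41007, 30790.4 and 56619 in USM, 6041, 12506 and 20459 in URO, 6793 and 6936 in CCD and 5122, 7403 and 7191 in EPT (2.36 ± 0.38, adjusted p = 8.28e-04), with USM above all other arrays. Meis1 differed by 2.22 ± 0.45 (adjusted p = 0.00444), Pknox2 by 1.71 ± 0.37 (adjusted p = 0.00588) and Meis2 by 2.14 ± 0.68 (adjusted p = 0.0484). Meis1 is also on the stromal marker list, of which 9 of 10 genes were higher in USM. Over the list the median was 1.71.

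Among upstream regulators, 11 of 16 on the array were tested, and the 2 called in USM were both lower, a share of 18.2% where 15.2% of all genes were called in either direction. Cyp26b1, the enzyme that degrades retinoic acid, an inducer of 3′ Hox genes, gave 90.0, 101 and 124 in USM, 464, 579 and 1237 in URO, 1881 and 1224 in CCD and 1048, 617 and 997 in EPT. USM was below all other arrays (-2.69 ± 0.35, adjusted p = 1.81e-04). Acvr2b, a receptor for Gdf11, was lower in USM (-1.41 ± 0.38, adjusted p = 0.0238). Aldh1a2, which makes retinoic acid, ranged over 776 to 2212 in USM, 758 to 2223 in URO, 1651 to 1911 in CCD and 1617 to 5624 in EPT and was not called (F-test adjusted p = 0.425). Of 28 Trithorax and Polycomb genes, which maintain Hox gene states, 1 (3.57%, against the same 15.2% of all genes) was called in USM, the lower Kdm6b (-2.79 ± 0.56, adjusted p = 0.00417), a histone H3 demethylase. In EPT against the rest, 3 of the 28 were higher and 1 lower, a share of 14.3% where 15.9% of all genes were called. Ezh1, a Polycomb methyltransferase, was among the higher (1.40 ± 0.32, adjusted p = 0.00976), and Rnf2 was the lower (-1.33 ± 0.41, adjusted p = 0.0408).

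Of 15 tested neighbours and noncoding genes of the clusters, 4 were called in USM, all lower, where 9.12% of all genes were lower. Hoxb5os, a noncoding gene of the HoxB cluster named as the opposite strand of Hoxb5, gave 816, 670.0 and 39.0 in USM, 4996, 18183 and 16060.0 in URO, 15812 and 6582 in CCD and 45364, 45728 and 68983 in EPT. Its 3 levels did not overlap, with USM lowest, URO and CCD between and EPT highest. This was the order of the compartment levels of Hoxb4 on its brighter probe set, but not on its dimmer one. The difference was -5.55 ± 0.63 in USM (adjusted p = 6.05e-05) and 3.87 ± 0.63 in EPT (adjusted p = 9.70e-04). Hoxd3os1, in the HoxD cluster, gave 6106, 1834 and 1566 in USM, 13927, 16977 and 10315 in URO, 26148 and 46666 in CCD and 2189, 7259 and 14782 in EPT, with both CCD arrays above all others as for Hoxd3. It was lower in USM (-2.43 ± 0.55, adjusted p = 0.00814). Skap1 (-1.63), which lies near HoxB, and Smug1 (-1.07), near HoxC, were lower in USM, while Lnpk (-1.64), near HoxD, was lower in EPT with an adjusted p of 0.0421.

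Of 14 tested partners and targets of Hox proteins in kidney and ureter, 2 were higher and 6 lower in USM, where 6.05% and 9.12% of all genes were. Tbx18, the T-box factor of ureteral mesenchyme, was higher (6.18 ± 0.49, adjusted p = 5.37e-06) and is also on the smooth muscle marker list. Sall1 (-3.85 ± 0.59, adjusted p = 5.62e-04), a zinc finger factor of nephron progenitors, and Pax8, a paired-box factor of the nephron lineage (-1.92 ± 0.34, adjusted p = 0.00167) were lower in USM. Gata3, a regulator of the ureteric bud lineage, was lower in USM (-3.23 ± 0.58, adjusted p = 0.00184) and in EPT (-3.48 ± 0.58, adjusted p = 0.00112).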

How the data were processed

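RNA of 4 laser-captured compartments was measured on Affymetrix Mouse 430 2.0 arrays, 11 in all. The deposited values are intensities, 1 signal per probe set on a linear scale, made by the authors with GCOS per the submitters' processing notes (version and settings not given in the sources used here), and the 2% trimmed mean is 1500 on every array. No detection calls were used here, so dim values carry no background bound. The number of arrays limits the precision.

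Probe sets were named through the platform annotation and RefSeq (45101 probe sets, 34945 with 1 symbol), and those with several symbols were left out of tests. A gene took its probe set with the highest mean, and signals were compared as log2(signal + 55), where 55 is the rounded 20th percentile of all signals. Groups followed the labels. One model over all 11 arrays was fitted with limma 3.58.1 (R 4.3.3) to 13614 genes, with Benjamini-Hochberg adjustment, and tested on simulated data. It gave an F-test and 12 comparisons. No p was adjusted over the Hox genes alone. Every Hox gene is named; array values are given for those called in any comparison. Of each companion list, mainly the called members with the largest moderated t are named. The members and lists were chosen with earlier results of these data known. Alternatives changed normalization, added value, filter, probe set choice, variance model and label batch, and left out each array. Promoter windows came from RefSeq tables. Figures used matplotlib 3.10.9.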

Additional observations from a re-analysis of the deposited data

Results flagged for a closer look

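For 6 Hox genes the ureter minus kidney difference in the mesenchyme-derived compartments (ureteral smooth muscle minus early proximal tubule) differed from that in the ureteric bud epithelia (urothelium minus cortical collecting duct) in a direct test of the difference between them (limma, Benjamini-Hochberg over 13614 genes). On the log2 scale the first minus the second was -3.06 ± 0.64 for Hoxb2 (adjusted p = 0.0117), -2.71 ± 0.65 for Hoxb3 (adjusted p = 0.0242) and -5.11 ± 0.72 for Hoxb4 (adjusted p = 0.00144). It was -3.75 ± 0.68 for Hoxb5 (adjusted p = 0.00520), -2.79 ± 0.62 for Hoxb6 (adjusted p = 0.0166) and 3.46 ± 0.80 for Hoxd13 (adjusted p = 0.0204). With label batch as a fixed block the value was -3.18 ± 0.73 for Hoxb2, -2.27 ± 0.63 for Hoxb3, -5.20 ± 0.60 for Hoxb4, -3.49 ± 0.71 for Hoxb5, -2.51 ± 0.65 for Hoxb6 and 3.19 ± 0.89 for Hoxd13, of which Hoxb2, Hoxb4 and Hoxb5 stayed called. Label batch 4 was the only one that held both ureter and kidney arrays. Only ureteral smooth muscle is not an epithelium, so organ, lineage and tissue type cannot be told apart in this test.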

How the results depend on the processing

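No Hox value called under the reported settings changed sign under any of the 21 alternatives. The 90 called Hox values (a gene in a comparison) were most often lost with label batch as a fixed block, where 36 stayed called and 54 did not. Calls over all genes fell as well. Against the rest they went from 2065 to 951 in smooth muscle, 322 to 0 in urothelium and 278 to 3 in collecting duct. In proximal tubule they went from 2169 to 406, and in ureter against kidney from 1818 to 0. Smooth muscle minus collecting duct went from 1126 to 302 and minus proximal tubule from 2771 to 710. Urothelium minus proximal tubule went from 1560 to 24 and the test between lineages from 896 to 603. That block left 7 Hox genes called in ureteral smooth muscle against the rest, 0 in urothelium, 0 in cortical collecting duct, 1 in early proximal tubule and 0 in ureter against kidney. It left 2 for smooth muscle minus collecting duct, 5 for smooth muscle minus proximal tubule, 0 for urothelium minus proximal tubule and 3 for the test between lineages (unadjusted p below 0.05 in limma for 2, 6, 7 and 4 of the 26 where 0 are given, in that order). The median standard error of all genes was larger under the block in all comparisons but collecting duct minus proximal tubule; otherwise the cause was not tested. In urothelium against the rest, 1 was called under quantile normalization, 12 added, no filter, the 75th percentile filter, averaged probe sets, no x, s and a probe sets, or a random batch block. With 190 added there were 6 calls in collecting duct against the rest, 7 in urothelium minus proximal tubule and 5 in collecting duct minus proximal tubule, and a trended robust variance model gave 5 in collecting duct against the rest. Leaving out 1 array at a time gave 11 to 17 Hox genes across compartments, 8 to 12 in smooth muscle, 0 to 2 in urothelium, 0 to 4 in collecting duct, 4 to 13 in proximal tubule and 7 to 12 in ureter against kidney. It gave 6 to 9 for smooth muscle minus urothelium, 6 to 12 for smooth muscle minus collecting duct and 7 to 11 for smooth muscle minus proximal tubule. It gave 0 for urothelium minus collecting duct, 2 to 9 for urothelium minus proximal tubule, 1 to 5 for collecting duct minus proximal tubule and 3 to 6 between lineages. Where this left 1 collecting duct array, that array was assumed to vary like the other compartments. Hoxb2 to Hoxb6, Hoxd3 and Hoxd13 stayed called in smooth muscle against the rest under every alternative that tested them. No paired analysis was possible because the numbers in the labels do not tie an array of 1 compartment to one of another. Signals such as Hoxb5 in smooth muscle lie under the added value, so their differences are sizes on that scale only.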
